A study of Bos taurus with 12 samples.

Results

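Chemokines are small secreted proteins that draw leukocytes out of blood and place them within a tissue, and their receptors are G protein-coupled receptors on the cells that respond. The account below covers the 49 chemokine and chemokine receptor genes, of 17574 genes on the array, that were found by gene name: every non-control probe named CCL, CXCL, CX3CL, XCL, CCR, CXCR, CX3CR or XCR with a digit, plus GRO1 and CXCL8 (also written IL8). They comprised 32 ligand and 17 receptor genes read by 96 probes, of which 2 were left out for outlier flags on the arrays. A gene was represented by its brightest probe, and 29 genes had more than 1 probe. CCR6 and CX3CL1 were not analysed here.

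The study followed the endometrium, the inner lining of the uterus, of 3 fertile cows (Bos taurus) given povidone-iodine, an iodine antiseptic, into the uterus. Biopsies were taken from alternating uterine horns of the same 3 animals on day 0 and on days 2, 7 and 14. Total RNA of every biopsy was hybridised to a 1-colour (Cy3) Agilent array, which gave 3 arrays for each day and 12 in all. All cows received povidone-iodine, day 0 is the earliest biopsy, and no untreated or sham-treated cow was among the samples, so time, repeated biopsy, horn and treatment cannot be told apart. Pooling, breed and age were not stated in the sources used here, and each cow is the replicate. In bulk tissue, fewer cells of a type and less RNA per cell cannot be told apart.

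As background, the CXC ligands with a glutamate-leucine-arginine motif, such as CXCL8 and CXCL5, act on CXCR1 and CXCR2 and attract neutrophils. CXCL9, CXCL10 and CXCL11 act on CXCR3 of T and NK cells, CCL2 and CCL8 attract monocytes, and CCL19 and CCL21 guide dendritic cells and lymphocytes that carry CCR7. In the uterus, neutrophil and monocyte recruitment is known to accompany tissue injury and infection after calving.

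Values are log2 processed signal minus the 75th percentile of the array, so 0 is the array's 75th percentile, and a step of 1 on the log2 scale is a doubling of signal. Levels of different probes are not set against each other. The 75th percentile of signal ran between 824 and 1117 over the arrays, and 71.3 to 76.0% of probes were well above background, except on the day 2 array of cow 3 with 63.2%. None of the 13 epithelial and 12 stromal endometrial markers on the array was below background throughout. The names of the samples were taken from the columns of the deposited value table, each of which matched 1 scanner file. The links between scanner files and samples gave other names for 10 of 12 arrays. With the linked names, 0 of 40 member genes passed the limma threshold on day 2 or on day 7 (2 and 4 had an unadjusted p under 0.05), so every change below rests on the names of the value table. Under those names each slide held 1 cow and each position on a slide held 1 day, so slide and cow, and position and day, cannot be told apart.

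Of the 49 genes, 27 were well above background on all 12 arrays, and 6 were on none: CCR2, CCR8, CCR9, CXCR2, XCL2 and XCR1. A probe was tested if it was well above background on at least 3 arrays, which left 40 member genes (29 ligands and 11 receptors) and 70 member probes. Some of the ligand probes lie together in the genome, while other member probes are spread over further chromosomes. On the array's build, HGSC Btau_3.1, CXCL8, CXCL5, CXCL2, CXCL3 and GRO1 follow each other on chromosome 6, whereas CCL2, CCL3, CCL4, CCL5, CCL8, CCL11, CCL14 and CCL16 lie on chromosome 19. Whether a probe lies in a coding exon or an untranslated region was not resolved, because no transcript model of that build was used.

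The sequences of the 5 neutrophil-attracting CXC ligand probes are shown because close relatives could share signal. All are read 5′ to 3′ from the forward strand of chromosome 6, and capitals mark the longest run shared with another of the 5 probes. Each is 30 of the 60 bases of its probe.
CXCL8 (within chr6:91793390-91793449): aatcctgcttTTTTGTTttcggtttttgta
CXCL5 (within chr6:91879955-91880014): atggtttatagtgcttcTTTTGTTctttgg
CXCL2 (within chr6:91929433-91929492): gtaaggcacAATGCCTTGTTTcatgttaat
CXCL3 (within chr6:92062155-92062214): gtaaggcatAATGCCTTGTTTaatgtttac
GRO1 (within chr6:92073748-92073807): gttaatgtagggAATGTATgtatacattta
The CXCL2 and CXCL3 stretches were identical at 26 of 30 bases, and their probes at 45 of 55 aligned bases (81.8%). No other pair among these 5 was above 56.7% over an ungapped overlap of at least 30 bases. CXCL2 and CXCL3 are therefore uncertain as separate readings, and the share of signal that crossed between them was not tested. The array's own annotation names the CXCL3, CXCL2 and GRO1 probes alike as CXCL2, and the accessions told them apart.

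CCL19 is shown because its probes did not agree. Its brightest probe holds 3 copies of a 6-base unit, in capitals, and the other lies 84 bases away on the opposite strand.
CCL19, brightest probe, reverse strand (within chr8:80276413-80276472): tgtcatTGTGAGTGTGAGTGTGAGtgagga
CCL19, other probe, forward strand (within chr8:80276557-80276616): ttcagtgattcacattctgtcttcagaaca
The probe named through RefSeq as CCL19 is the one on the reverse strand.

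Chemokine and chemokine receptor genes were mostly higher than on day 0, with 5 member genes higher past the threshold on day 2, 14 on day 7 and none on day 14. On day 2 against day 0 these were CCL19, CCL2, CCL3, CXCL8 and CXCL9, and none was lower. They made up 12.5% of the 40 member genes tested, against 2.9% of all 13945 genes called in either direction (1.86% higher and 1.03% lower), at a limma p adjusted by Benjamini-Hochberg below 0.05 over 33539 probes. On day 7 against day 0, 14 member genes were higher and 2 were lower, 40% of those tested, against a background of 19.1% in either direction (10.6% higher and 8.53% lower). On day 14 against day 0 none passed, with 7 at an unadjusted p under 0.05, and the background was 0.108%. The median log2 change over the member genes tested was 0.82 on day 2, 1.35 on day 7 and 0.58 on day 14, beside 0.01, 0.04 and 0.04 over all genes tested. With normexp and quantile normalization the member medians were 0.47, 0.68 and 0.26, and with the linked sample names they were -0.65, -0.35 and -0.19. Without cow 1 the day 2 median was 0.48. The limma F-test over the 4 days called 6 member genes (15.0%, background 8.35%): ACKR3, CCL19, CCL2, CCL3, CXCL8 and CXCL9.

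The counts depended on single biopsies. The day 2 count was 3 without cow as a block. It was 0 without cow 1 or without cow 2, and 0 without the day 0 or the day 2 array of cow 1. It was 1 without the day 0 or the day 2 array of cow 2, 2 without the day 0 array of cow 3 or the day 7 array of cow 2, 3 without the day 14 array of cow 1 and 8 without the day 7 array of cow 3. The day 7 count was 0 without cow 1, 1 without cow 2, 4 and 5 without the day 0 arrays of cow 1 and cow 2, and 10 and 6 without their day 7 arrays. In the same limma fits, no probe of the whole array passed on day 2 without cow 1 or without cow 2, or on day 7 without cow 1. Without cow 3 the counts were 6 on day 2 and 16 on day 7.

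**Figure D1:**
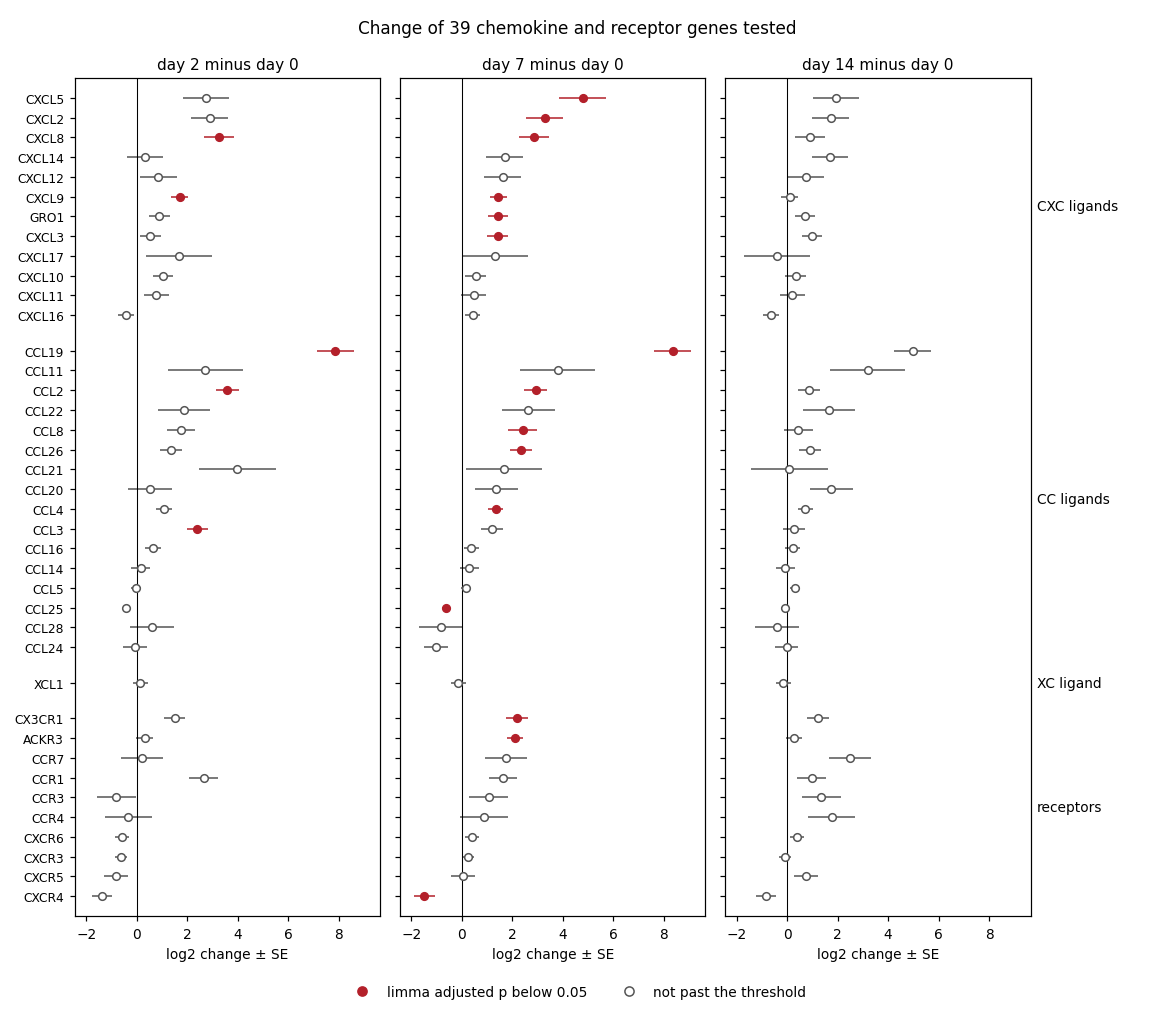
Each row is 1 of 39 member genes tested, and the horizontal axis gives the log2 change from day 0 with its standard error on day 2, day 7 and day 14 (panels left to right). Filled points passed the limma threshold: 5 on day 2, 15 on day 7 and 0 on day 14. CCL19, CXCL2, CCL20 and CCL22 were well above background on no day 0 array, and CCL20, CCR4 and CXCR3 on no day 2 array, so their fitted changes are not bounds.

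The neutrophil-attracting CXC ligands CXCL8, CXCL5, CXCL2, CXCL3 and GRO1 were all higher on day 7 than on day 0. All 5 of 5 passed the threshold, beside 10.6% of all genes called higher. The count over these 5 was not planned in advance, and CXCL2 and CXCL3 are uncertain as separate readings. On day 2, CXCL8 alone of the 5 passed, and on day 14 none did. Their median log2 change was 2.73 on day 2, 2.87 on day 7 and 0.99 on day 14. The day 7 count fell to 0 without cow 1, without cow 2 or without the day 0 array of cow 1, to 1 without the day 0 array of cow 2 or the day 7 array of cow 1, and to 2 without the day 7 array of cow 2 or of cow 3. It was 3 without cow 3, without the day 2 array of cow 2 or without the day 14 array of cow 1 or cow 2.

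CXCL8, the prototype neutrophil attractant, had day 0 levels of -6.20, -6.24 and -6.97 in cows 1, 2 and 3, day 2 levels of -2.91, -3.09 and -3.61, day 7 levels of -2.73, -2.95 and -5.11 and day 14 levels of -6.58, -3.88 and -6.25. Every day 2 and day 7 array lay above every day 0 array, while day 14 overlapped day 0 and only cow 2 stayed high. Only 1 of the 3 day 0 arrays was well above background. CXCL8 was 9.60-fold higher on day 2 than on day 0 (log2 3.26 ± 0.59 SE, limma adjusted p = 0.0348) and 7.30-fold higher on day 7 (log2 2.87 ± 0.59, limma adjusted p = 0.0166). Its 2 other probes were not well above background on any day 0 array and were at least 11.8-fold and at least 5.11-fold higher on day 2 (limma adjusted p = 0.0398 and 0.0395).

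CXCL5, an epithelium-derived ligand of CXCR2, had day 0 levels of -5.83, -4.29 and -4.58, day 2 levels of -1.54, -1.70 and -3.25, day 7 levels of -0.33, 0.04 and -0.07 and day 14 levels of -3.57, -0.10 and -5.26. The day 7 arrays agreed within a spread of 0.19 (SD, n = 3) and lay far above day 0, whereas on day 14 cow 2 was near its day 7 level and cow 3 near its day 0 level. It was 27.4-fold higher on day 7 than on day 0 (log2 4.78 ± 0.91 SE, limma adjusted p = 0.0132). The day 2 change was 2.73 ± 0.91 on the log2 scale and did not pass (limma adjusted p = 0.146).

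CXCL2, a ligand of CXCR2, had day 0 levels of -8.44, -6.58 and -6.66, none of them well above background, day 2 levels of -4.00, -4.37 and -4.62, day 7 levels of -3.01, -5.23 and -3.63 and day 14 levels of -5.13, -4.85 and -6.51. It was at least 5.77-fold higher on day 7 than on day 0 (limma adjusted p = 0.0213). Here "at least" sets the later mean against the lowest signal called well above background on the day 0 arrays. CXCL3, also a ligand of CXCR2, had day 0 levels of -0.46, 0.22 and 1.06, day 2 levels of 1.31, 0.99 and 0.15, day 7 levels of 1.71, 1.70 and 1.66 and day 14 levels of 1.35, 1.05 and 1.38. It was 2.67-fold higher on day 7 than on day 0 (limma adjusted p = 0.0466), the call nearest to the threshold among the 16. GRO1, a CXCL1-type ligand, had day 0 levels of -4.66, -3.11 and -3.40, day 2 levels of -2.66, -2.65 and -3.17, day 7 levels of -2.06, -2.29 and -2.55 and day 14 levels of -2.60, -2.72 and -3.73. It was 2.69-fold higher on day 7 than on day 0 (limma adjusted p = 0.0447). For CXCL2, CXCL3 and GRO1 the day 7 and day 0 arrays did not overlap.

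**Figure D2:**
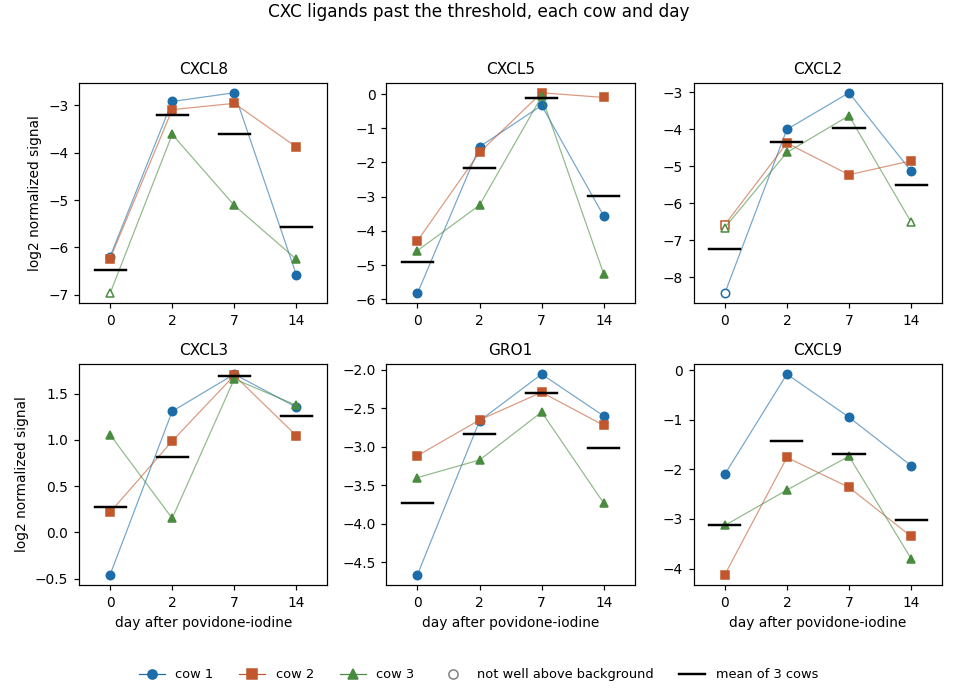
Log2 normalized signal (vertical axis, a scale of its own in each panel) of 6 CXC ligands on days 0, 2, 7 and 14 (evenly spaced), with 1 symbol for each cow and a bar at the mean of the 3 cows. Open symbols are not well above background. In the 5 neutrophil-attracting ligands every day 7 point lies above every day 0 point, and CXCL9 changes within each cow while its days overlap. The share of all genes on the array without such overlap was not counted.

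The receptors for these ligands were barely measured. CXCR2 was not well above background on any array. The brightest CXCR1 probe was so on the day 7 arrays of cow 1 (-4.24) and cow 2 (-5.23), against values between -8.81 and -7.01 on the 9 arrays of the other days and -8.24 in cow 3 on day 7. A second CXCR1 probe was well above background on the day 7 array of cow 1 alone (-5.75), and the other probe on the day 0 array of cow 3 alone (-6.40). None of the 3 probes was tested. The mean level of 14 neutrophil markers ranged over the cows between -4.16 and -3.77 (day 0), -3.15 and -2.65 (day 2), -3.66 and -2.81 (day 7), and -3.71 and -3.23 (day 14). S100A12, a neutrophil alarmin, was the only 1 of 12 tested markers to pass on day 2 (log2 3.78), beside 2.9% of all genes called. On day 7, 3 of 12 passed, all higher, among them S100A12 and PADI4, beside 19.1% of all genes called. The granule protease CTSG was well above background on no array. Whether these markers had a part in the ligand changes was not tested.

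Of the CXCR3 ligands, CXCL9 passed on days 2 and 7, while CXCL10 and CXCL11 passed on neither. CXCL9, an interferon-gamma-induced attractant of T and NK cells, had day 0 levels of -2.10, -4.13 and -3.13, day 2 levels of -0.08, -1.76 and -2.41, day 7 levels of -0.94, -2.36 and -1.73 and day 14 levels of -1.92, -3.35 and -3.80. Cow 1 was the highest on every day and the days overlapped, yet every cow was higher on day 2 and on day 7 than on day 0. It was 3.26-fold higher on day 2 (log2 1.70 ± 0.34 SE, limma adjusted p = 0.0432) and 2.71-fold higher on day 7 (limma adjusted p = 0.0252), and near its day 0 level on day 14 (log2 0.09). Without cow as a block, CXCL9 passed on neither day. Another CXCL9 probe was well above background on 1 day 2 array alone and was not tested, so both calls rest on 1 probe.

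CXCL10 had day 0 levels of 0.48, -1.46 and 0.91, day 2 levels of 2.16, -0.36 and 1.23, day 7 levels of 1.09, -0.53 and 0.98 and day 14 levels of 0.58, 0.07 and 0.27. Cow 2 was the lowest on each of these days, and the log2 change was 1.04 ± 0.40 on day 2 (limma adjusted p = 0.193) and 0.54 ± 0.40 on day 7. The change of CXCL11 was 0.78 ± 0.49 on day 2. CXCR3, their receptor on T and NK cells, was well above background on 4 of 12 arrays and on none of day 2, and it passed in no comparison. Of 15 T and NK cell markers tested, NKG7 was higher and ZAP70 was lower on day 2, beside 2.9% of all genes called. On day 7, CD2 and NKG7 were higher and ZAP70 was lower, a share near the 19.1% of all genes called.

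Of the monocyte-attracting CC ligands, CCL2 rose on days 2 and 7 and CCL8 on day 7. CCL2, the main ligand of CCR2 and a chief attractant of monocytes, had day 0 levels of -1.27, -0.66 and -0.07, day 2 levels of 2.88, 3.16 and 2.75, day 7 levels of 2.32, 3.28 and 1.16 and day 14 levels of 0.15, 0.63 and -0.14. All day 2 and day 7 arrays lay above all day 0 arrays, and day 14 overlapped day 0. CCL2 was 12.1-fold higher on day 2 than on day 0 (log2 3.59 ± 0.44 SE, limma adjusted p = 0.0124) and 7.55-fold higher on day 7 (log2 2.92 ± 0.44, limma adjusted p = 0.00655). Its second probe gave 8.66-fold on day 2 and 4.99-fold on day 7, past the threshold on both days.

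CCL8, another monocyte attractant, had day 0 levels of -2.17, -2.80 and -1.71, day 2 levels of 0.65, -0.96 and -1.10, day 7 levels of -0.01, 0.85 and -0.29 and day 14 levels of -1.19, -1.22 and -2.94. It was 5.31-fold higher on day 7 than on day 0 (log2 2.41 ± 0.56 SE, limma adjusted p = 0.0248). On day 2 the change was 1.76 ± 0.56 and missed the threshold (limma adjusted p = 0.135), although the groups did not overlap. CCR2, the receptor of CCL2, was not well above background on any array. Levels of 15 macrophage and monocyte markers averaged -1.10 to -0.86 on day 0, -0.01 to 0.33 on day 2, -0.91 to 0.75 on day 7 and -1.14 to 0.14 on day 14. CD68 and SPIC passed on day 2, CD14, CD68, CSF1R, FCGR1A and SPIC on day 7, and GPNMB and SPIC on day 14, all higher, beside 2.9%, 19.1% and 0.108% of all genes called. The part of these markers in the CCL2 and CCL8 changes was not tested.

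CCL3 and CCL4, inflammatory ligands made by activated macrophages and lymphocytes, passed on different days. CCL3 had day 0 levels of -5.32, -5.71 and -6.03, day 2 levels of -3.99, -3.44 and -2.42, day 7 levels of -4.51, -4.01 and -5.00 and day 14 levels of -5.85, -4.97 and -5.41. It was 5.30-fold higher on day 2 than on day 0 (log2 2.41 ± 0.43 SE, limma adjusted p = 0.0334), and its log2 change on day 7 was 1.18 ± 0.43 (limma adjusted p = 0.0907). CCL4 had day 0 levels of -3.65, -4.50 and -5.15, day 2 levels of -3.22, -3.38 and -3.46, day 7 levels of -3.15, -3.04 and -3.09 and day 14 levels of -2.94, -3.93 and -4.26. The cows differed most on day 0 and lay close together on day 7. CCL4 was 2.54-fold higher on day 7 than on day 0 (limma adjusted p = 0.0217). CCL4 on day 7 against day 2 and CCL3 on day 7 against day 2 did not pass.

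CCL5, a ligand associated with T cells, passed on no day. It had day 0 levels of 0.96, -0.95 and -0.14, day 2 levels of 0.81, -0.60 and -0.39, day 7 levels of 1.26, -0.80 and -0.14 and day 14 levels of 1.57, -0.74 and -0.05. Cow 1 was the highest and cow 2 the lowest on all 4 days, and the largest change from day 0 on this probe was 0.30 ± 0.19 (log2, day 14, limma adjusted p = 0.394). Its other probes changed by up to 0.49 on day 7 (limma adjusted p = 0.116) and 0.43 on day 14, and none passed.

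Among the CC ligands, CCL19 had the largest change. On its brightest probe, CCL19 had day 0 levels of -8.46, -8.77 and -8.55, day 2 levels of -0.49, -0.04 and -1.62, day 7 levels of -0.65, 0.39 and -0.46 and day 14 levels of -5.08, -3.98 and -1.81. No day 0 array was well above background and all 9 later arrays were. The signal was at least 56.7-fold higher on day 2 than on day 0 (limma adjusted p = 0.0116), at least 78.9-fold higher on day 7 (limma adjusted p = 0.00187) and at least 7.57-fold higher on day 14, which just missed the threshold (limma adjusted p = 0.0536). The day 14 value passed without cow as a block (limma adjusted p = 0.0337). The opposite-strand probe shown above had log2 changes of 0.02, -0.35 and -1.18 on days 2, 7 and 14 and was well above background on 3 of 12 arrays.

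**Figure D3:**
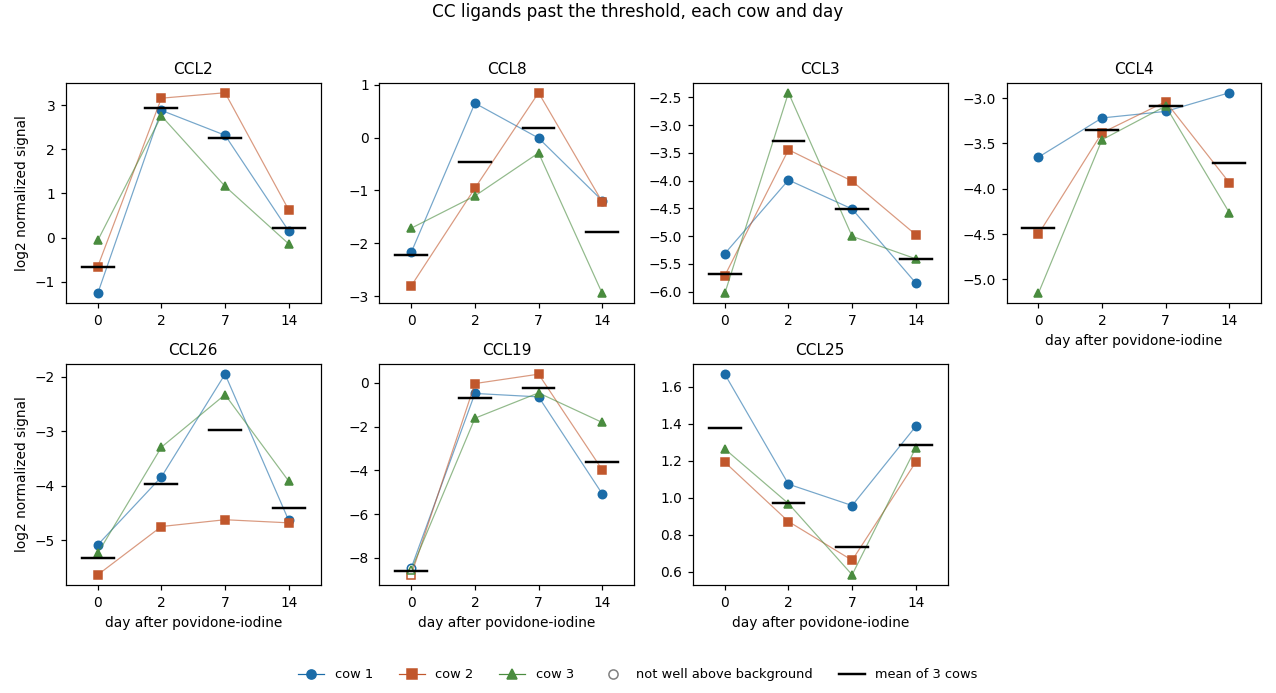
Log2 normalized signal (vertical axis, a scale of its own in each panel) of the 7 CC ligands that passed the threshold on day 2 or day 7, for each cow on days 0, 2, 7 and 14 (evenly spaced), with a bar at the mean of the 3 cows. Open symbols are not well above background. CCL2 and CCL3 are highest on day 2, CCL19 is high on days 2 and 7, and CCL25 is lowest on day 7.

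CCL21, the other CCR7 ligand, made by lymphatic endothelium and stroma, had day 0 levels of -4.30, -5.72 and -7.11, day 2 levels of -3.44, -2.50 and 0.79, day 7 levels of -1.89, -6.37 and -3.88 and day 14 levels of -7.15, -7.32 and -2.40. Different cows were high on different days, and the day 2 change of 3.99 ± 1.52 did not pass (limma adjusted p = 0.186). Its 2 probes share a run of 51 bases and gave similar changes (4.06 on day 2 from the second probe). Of 5 lymphatic endothelial markers tested, CCL21 itself among them, LYVE1 alone was higher on day 7, beside 10.6% of all genes called higher. CCR7, the receptor that brings dendritic cells and T cells to both ligands, had day 0 levels of -4.73, -6.52 and -5.89, day 2 levels of -3.64, -5.90 and -6.93, day 7 levels of -2.76, -2.83 and -6.34 and day 14 levels of -3.28, -3.46 and -2.90. It was high in cows 1 and 2 on day 7 and in all cows on day 14, with log2 changes of 1.74 ± 0.83 and 2.51 ± 0.83 that did not pass (limma adjusted p = 0.174 and 0.157). Without cow 3, the day 7 change of CCR7 passed the limma threshold.

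The eosinophil-attracting ligands CCL11, CCL24 and CCL26 did not change alike. CCL26 had day 0 levels of -5.08, -5.63 and -5.24, day 2 levels of -3.84, -4.75 and -3.29, day 7 levels of -1.96, -4.62 and -2.33 and day 14 levels of -4.63, -4.68 and -3.91. It was 5.08-fold higher on day 7 than on day 0 (log2 2.35 ± 0.44 SE, limma adjusted p = 0.0126), with cow 2 changing least. CCL11 changed by 3.79 ± 1.48 and CCL24 by -1.04 ± 0.47 on day 7 (limma adjusted p = 0.110 and 0.156). CCL24 was low in cow 3 on day 7 (-4.93) and day 14 (-4.27), against values between -3.01 and -0.95 on the other arrays. CCR3, the receptor of all 3, was highest in cow 2 on day 7 (-1.94) and day 14 (-2.54), and its changes did not pass. Its brightest probe changed by 1.06 on day 7 and 1.35 on day 14. A dimmer CCR3 probe changed by -0.11 and -0.48 without passing. None of 4 eosinophil and mast cell markers tested passed on day 2, 7 or 14, beside 2.9%, 19.1% and 0.108% of all genes called. The mean of the 5 such markers on the array was -2.69 and -2.88 in cows 1 and 2 on day 7. It was -4.67 in cow 3 on day 7, and -4.49 to -3.59 on day 0. The part of these markers in the levels of CCL26 and CCR3 was not tested.

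CCL17 and CCL22, the ligands of CCR4 made by dendritic cells and macrophages, were read in few biopsies. CCL17 was well above background only on the day 7 arrays of cow 1 (-1.92) and cow 2 (-3.85), against -8.03 in cow 3 on day 7 and between -8.79 and -6.78 on the other days, and it was not tested. CCL22 was well above background on no day 0 array, on the day 7 arrays of the same 2 cows (-4.76 and -4.68), and on 1 array each of day 2 (cow 1, -5.21) and day 14 (cow 3, -5.49). Its day 7 mean was at least 1.68-fold above day 0 without passing (limma adjusted p = 0.111). That mean includes cow 3, which was not well above background on day 7 (-7.93), so the bound does not hold for each cow. A second CCL22 probe was well above background on no array, at -6.83 and -8.53 in cows 1 and 2 on day 7. The 11 dendritic cell markers averaged -3.95 and -4.53 in cows 1 and 2 on day 7 and -5.45 in cow 3, against -5.81 to -5.44 on day 0. XCR1 and ZBTB46 among them were well above background on no array. CCL20, the ligand of CCR6, had day 0 levels of -7.42, -8.53 and -6.94, day 2 levels of -6.52, -7.26 and -7.53, day 7 levels of -4.70, -5.53 and -8.59 and day 14 levels of -6.08, -4.73 and -6.86. It was well above background on 4 of 12 arrays, those of cows 1 and 2 on days 7 and 14, and passed in none of the comparisons with day 0. Without cow 3 its day 7 change passed the limma threshold. The other CCL20 probes were well above background on no array, including 1 that shares a run of 20 bases with the brightest.

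CCL25 was the only ligand called lower. A ligand of CCR9 known from gut and thymus, it had day 0 levels of 1.67, 1.19 and 1.26, day 2 levels of 1.07, 0.87 and 0.97, day 7 levels of 0.96, 0.66 and 0.58 and day 14 levels of 1.39, 1.19 and 1.27. Day 7 lay wholly below day 0, at 1.56-fold lower (log2 -0.64 ± 0.14 SE, limma adjusted p = 0.0180), and day 14 was back within the day 0 range. A dimmer probe of CCL25 changed by -0.73 ± 0.60 without passing. CCL28, a mucosal epithelial ligand, had day 0 levels of -2.03, -1.47 and -4.07 and did not pass on any day.

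The CXCL12 receptors CXCR4 and ACKR3 were called in opposite directions on day 7, and CXCL12 itself passed on no day. CXCL12, the stromal ligand that retains CXCR4-bearing cells, had day 0 levels of 2.02, 2.49 and 2.74, day 2 levels of 2.50, 2.75 and 4.57, day 7 levels of 5.26, 3.65 and 3.21 and day 14 levels of 2.12, 2.76 and 4.56. The high arrays were cow 3 on days 2 and 14 and cow 1 on day 7, and no change passed (log2 1.62 ± 0.73 on day 7, limma adjusted p = 0.153). Without the day 7 array of cow 3, that change passed the limma threshold. All 7 CXCL12 probes showed these same 3 arrays as their highest. CCL11 had the same pattern in part, at 1.15 in cow 3 on day 2 and 1.11 in cow 1 on day 7, against at most -4.98 on day 0.

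Smooth muscle markers were high in these 3 biopsies and also in cow 3 on day 7, where CXCL12 was the lowest of that day. The mean of 8 such markers was 5.82, 5.08 and 5.31 in cow 3 on days 2, 7 and 14. On day 7 it was 4.33 in cow 1 and 3.87 in cow 2, against 2.61 to 3.16 on day 0. The day 7 biopsies of all 3 cows thus lay above the day 0 range. Of the 8 markers, 3 were higher past the limma threshold on day 7, beside 10.6% of all genes called higher. Epithelial markers averaged 0.26 in cow 3 on day 2, the lowest of the 12 arrays. The part of smooth muscle in the levels of CXCL12, CCL11 and CCL21 was not tested.

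**Figure D4:**
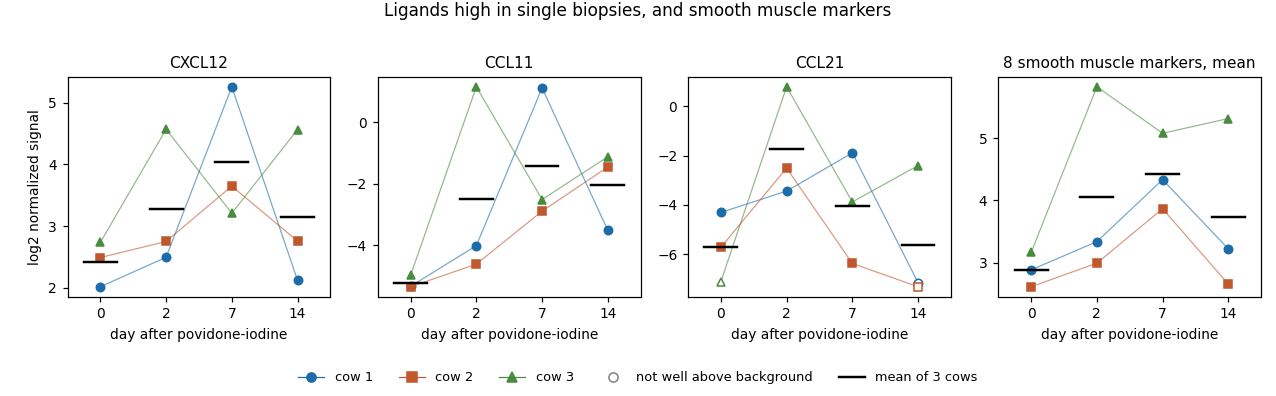
Log2 normalized signal (vertical axis, a scale of its own in each panel) of CXCL12, CCL11 and CCL21, and the mean of 8 smooth muscle markers, for each cow on days 0, 2, 7 and 14 (evenly spaced), with a bar at the mean of the 3 cows. Open symbols are not well above background. Cow 3 is highest in all 4 panels on day 2, and cow 1 is highest in the 3 ligands on day 7.

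CXCR4, the signalling receptor of CXCL12, had day 0 levels of -1.27, -1.05 and -0.46, day 2 levels of -2.50, -2.87 and -1.54, day 7 levels of -1.87, -2.29 and -3.09 and day 14 levels of -1.91, -1.89 and -1.52. All 9 later arrays lay below all day 0 arrays. The day 7 level was 2.81-fold lower than on day 0 (log2 -1.49 ± 0.41 SE, limma adjusted p = 0.0392). The changes of -1.38 ± 0.41 on day 2 and -0.85 ± 0.41 on day 14 did not pass (limma adjusted p = 0.112 and 0.280). A second CXCR4 probe changed by -1.51 ± 0.47 on day 7 and just missed the threshold (limma adjusted p = 0.0561).

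ACKR3, named CXCR7 in the array's annotation, binds and removes CXCL12. It had day 0 levels of -0.36, 0.52 and 0.13, day 2 levels of -0.08, 0.55 and 0.75, day 7 levels of 2.58, 2.55 and 1.5 and day 14 levels of 0.06, 0.71 and 0.35. Day 7 stood above all other days without overlap. It was 4.33-fold higher on day 7 than on day 0 (log2 2.12 ± 0.32 SE, limma adjusted p = 0.00654), and a second probe gave 4.34-fold. ACKR3 on day 7 against day 2 and on day 14 against day 7 was not past the threshold.

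Of the 11 receptors tested, none passed on day 2, beside 2.9% of all genes called. On day 7 ACKR3 and CX3CR1 were among those higher and CXCR4 was lower, beside 10.6% of all genes called higher and 8.53% lower. CX3CR1, the fractalkine receptor of monocytes and NK cells, had day 0 levels of -1.27, -2.09 and -1.67, day 2 levels of -0.37, -0.55 and 0.39, day 7 levels of 1.13, 0.50 and -0.15 and day 14 levels of -0.11, 0.05 and -1.30. It was 4.50-fold higher on day 7 than on day 0 (log2 2.17 ± 0.43 SE, limma adjusted p = 0.0148), with day 2 also wholly above day 0 but not past the threshold (limma adjusted p = 0.106).

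CCR1, which binds CCL3 and CCL5 and marks monocytes and neutrophils, came closest to the threshold on day 2. It had day 0 levels of -2.18, -2.51 and -2.44, day 2 levels of 0.24, 0.24 and 0.34, day 7 levels of 0.50, -0.13 and -2.61 and day 14 levels of -1.22, -0.84 and -2.16. The 3 cows agreed on day 2, 2.65 ± 0.56 above day 0 on the log2 scale (limma adjusted p = 0.0515), whereas cow 3 was back at its day 0 level on day 7. Cow 3 also had the lowest day 7 level of the 3 cows for CCR7, CCL20, CCL22, CCL17, CXCR1 and CXCL8, although its CXCL8 was still above its day 0 level. Other members differed: cow 2 was the lowest on day 7 for CXCL2, CXCL9, CXCL10, CCL26, CCL21 and CCL5. CXCL17 was highest in cow 3 on that day. The members were not counted by their lowest cow. Cow 3 on day 7 also had the lowest mean of the macrophage markers on that day, at -0.91 against 0.75 in cow 1 and 0.13 in cow 2. Whether the macrophage markers had a part in the member levels was not tested.

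**Figure D5:**
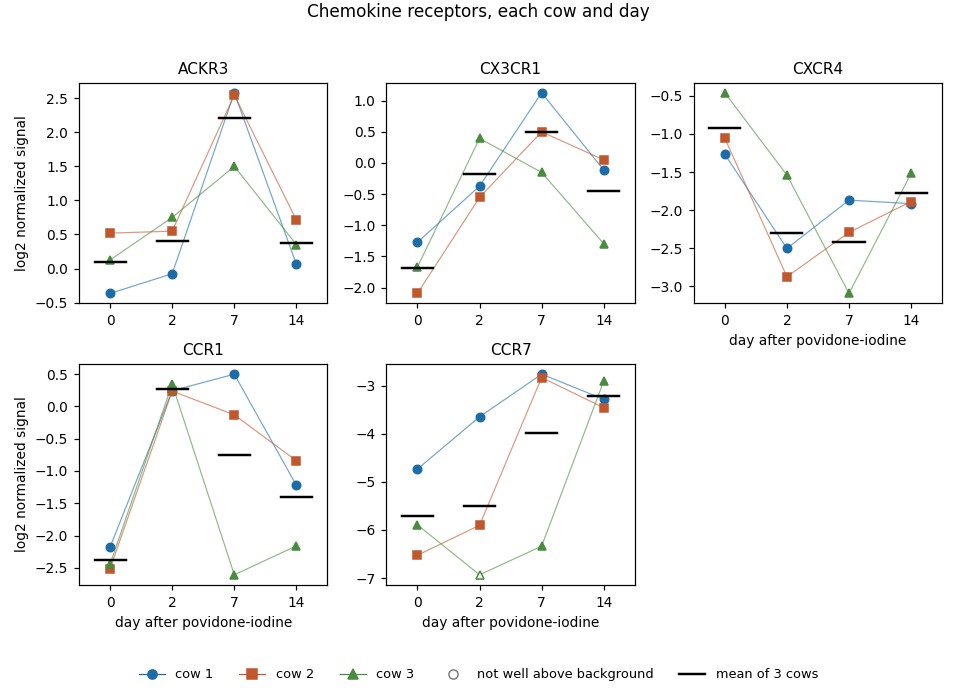
Log2 normalized signal (vertical axis, a scale of its own in each panel) of 5 chemokine receptors for each cow on days 0, 2, 7 and 14 (evenly spaced), with a bar at the mean of the 3 cows. Open symbols are not well above background. ACKR3 is highest on day 7, CXCR4 is below its day 0 level on every later array, and CCR1 and CCR7 are low in cow 3 on day 7.

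CXCL16, the transmembrane ligand of CXCR6, passed on no day, with day 0 levels of 3.22, 2.86 and 3.05, day 2 levels of 2.76, 2.56 and 2.52, day 7 levels of 3.71, 3.96 and 2.72 and day 14 levels of 2.34, 3.09 and 1.76. Its log2 changes from day 0 were -0.43, 0.42 and -0.64. CXCL14, a ligand of epithelium and stroma, changed by 1.69 ± 0.72 on day 7 and was at 3.63 in cow 2 on day 14. CXCL17, a mucosal ligand, was at 0.60 in cow 3 on day 7 against -5.72 to -2.16 on the other 11 arrays. The lymphotactin gene XCL1 moved by at most 0.15 on the log2 scale from day 0. The remaining tested members CCL14, CCL16, CCR4, CXCR5 and CXCR6 passed in no comparison.

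Comparisons among the later days called no member gene. On day 7 against day 2, 6 members had an unadjusted p under 0.05 and the background of called genes was 0.538%. On day 14 against day 2, 13 did, with a background of 0%, and on day 14 against day 7, 11 did, with a background of 0.158%. These comparisons share their arrays with the comparisons above. The median log2 change over the member genes was 0.43 on day 7 against day 2, -0.26 on day 14 against day 2 and -0.61 on day 14 against day 7. The median of 0.43 was 0.17 without cow 1, 0.16 and 0.23 without the day 7 arrays of cow 1 and cow 2, and 0.25 without the day 2 array of cow 1. It was 0.19 with normexp and quantile normalization and 0.17 over probes above background on all 12 arrays. With the linked sample names the day 14 against day 2 median was 0.32 and the day 14 against day 7 median -0.11. Without cow 3, 3 member genes passed on day 7 against day 2 and 2 on day 14 against day 7. Without the day 7 array of cow 3, 2 passed in each of these comparisons, and without the day 14 array of cow 2, 1 passed in each. On day 14 against day 7, 1 also passed without the day 14 array of cow 3.

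Where a called gene had another tested probe, the probes mostly moved together. These genes were chosen by a passing probe and their other probes read the same RNA, so the probes are not separate evidence. On day 2, 4 of 5 other probes of the called genes passed, beside 2.52% of all probes. The sign was the same in 5 of 5, although the opposite-strand CCL19 probe changed by only 0.02. On day 7, 7 of 10 passed, beside 18.2% of all probes, and 9 of 10 had the same sign, the exception being the opposite-strand CCL19 probe.

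Genes around the chemokine system were read from lists chosen with earlier results known. Their counts stand beside 1.86% of all genes called higher on day 2 and 10.6% on day 7. Of 14 genes of leukocyte rolling and adhesion tested, PECAM1 and the integrin chain ITGB2 were higher on day 2 and 5 on day 7, among them SELP, ICAM1, PECAM1 and ITGB2, and none was lower. Of 21 genes of receptor signalling and desensitisation, GNG2 and ARRB1 were higher on day 2 and 7 on day 7, among them GNG2 (log2 2.58), PLCB2 (1.75), RGS1 (1.74) and the phosphoinositide kinase gene PIK3CG (1.12). Of 15 tested inducers of chemokine genes none passed on day 2, and IL6 (log2 2.61), TNF (1.40), RELB (1.20) and NFKBIZ (0.88) were higher on day 7. IL17A, IL17F and LTA were well above background on no array. Of 12 genes tested from a list of chemokine-like proteins, atypical receptors and chemoattractant receptors, ACKR1 and PTAFR were higher on day 2. On day 7 ACKR1 (log2 2.28), ACKR3, C5AR1 (1.90) and PTAFR (1.64) were higher, where ACKR3 is also a member gene. Of 11 enzymes and matrix partners, the macrophage elastase MMP12 (log2 5.66) and SDC4 were higher on day 2, and DPP4 (3.09), a protease that trims chemokines, and SDC4 (2.37) on day 7. None of these lists had a gene past the threshold on day 14 against day 0.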

How the data were processed

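Per the file headers, each of the 12 arrays was scanned in 1 colour and quantified by the authors with Agilent Feature Extraction 11.5.1.1 (10.5.1.1 per the submitters' processing notes), with spatial and multiplicative detrending. The deposited intensity values are that software's processed signal, and the mean signal and background per spot. The authors' deposited value table holds log2 values that matched log2 processed signal minus the array's 75th percentile and minus each probe's median over the arrays.

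From the processed signal of 43622 probes (1417 control spots and 31 flagged probes left out), log2 values were scaled to each array's 75th percentile. Sample names followed the value table. Probes well above background on at least 3 arrays (33539) were fitted with limma 3.58.1 (R 4.3.3) with day and cow as terms, 6 residual and 2.33 prior degrees of freedom, and p-values were adjusted by Benjamini-Hochberg over all of them. The cow was a block because the same animals were biopsied each day. Deviations from the day means correlated at 0.285 on average between arrays of 1 cow (18 pairs, lowest 0.0235) and -0.136 between cows. The value between cows follows from centring each day on its 3 cows, so it adds no evidence of its own. On simulated data for day 7 against day 0 (33539 probes, few of them changed), the fit recovered 32, 66, 80 and 94% of probes changed by 1, 2, 3 and 4 on the log2 scale. It also called 11 unchanged probes. In the real comparison 6100 probes passed, and recovery after adjustment depends on the share of changed probes, so these percentages need not hold there.

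Probes took current symbols through RefSeq accessions where these matched (72 member probes), and the file's name otherwise. Probe sequences and coordinates are those of the scanner files on HGSC Btau_3.1. Values in every array are given for members past 0.05 in any test, for a list of well-known members, and for the 5 with the highest day 0 mean. Some results are not reported here; counts of genes include all tested. The number of arrays limits the precision. Members, lists and tests were chosen with earlier results of these data known.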

Additional observations from a re-analysis of the deposited data

How the results depend on the processing

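The 20 named changes called on day 2 or day 7 all kept their direction in the limma refits with the sample names of the value table. With the names of the file links none passed and 15 turned: on day 2, CCL19 (-1.43), CCL2 (-0.43), CCL3 (-0.40), CXCL8 (-1.35) and CXCL9 (-1.56), and on day 7, CCL19 (-0.85), CCL2 (-0.0313), CCL26 (-1.22), CCL4 (-0.70), CCL8 (-0.18), CX3CR1 (-0.20), CXCL2 (-0.43), CXCL8 (-0.65), CXCL9 (-1.91) and CXCR4 (0.33). That naming gave 0 member genes on day 2, on day 7 and in the F-test, and 0 of the 5 neutrophil-attracting ligands. Without the replicate block, 17 of 20 passed, with 3 members on day 2 against day 0 and 1 on day 14 against day 0. A random replicate block called 1 on day 14 against day 0, 1 on day 7 against day 2 and 1 on day 14 against day 7. Array weights, whose estimate did not converge and ran between 0.182 and 11.3, called 13 members on day 2 and 31 in the F-test, 1 on day 14 against day 0, 10 on day 7 against day 2, 25 on day 14 against day 2 and 16 on day 14 against day 7. An intensity trend gave 10 in the F-test, and 1 in each of day 14 against day 0, day 7 against day 2 and day 14 against day 7. Normexp with quantile normalization, and probes above background on all 12 arrays, each called 1 on day 7 against day 2 and 1 on day 14 against day 7. Fitting only the days compared left 6 members on day 7, and 2 of the 5 neutrophil-attracting ligands, of which 3 passed without a filter. The filter on all 12 arrays left 3 of them to test, and these 3 passed. Leaving out a cow gave 0 to 6 members on day 2, 0 to 16 on day 7, 0 to 9 in the F-test, 0 to 3 on day 7 against day 2, 0 to 2 on day 14 against day 7 and 0 to 3 of the 5 ligands. Leaving out an array gave 0 to 8, 4 to 17, 1 to 11, 0 to 2, 0 to 2 and 0 to 5, and 0 to 1 on day 14 against day 0. The cause of these shifts was not tested, beyond the fewer arrays and degrees of freedom. Signal near background limits CCL17, CCL20, CCL22, CXCL2, CXCR1 and the day 0 level of CCL19.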

Other observations

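A CCL17 probe that the name rule did not take, because the array's annotation carries only a sequence identifier for it, showed the same pattern as the member probe: -1.55 in cow 1 and -3.30 in cow 2 on day 7, against values between -7.54 and -6.08 on the other 10 arrays, none of them well above background. The probes share a run of 38 bases, so they are not separate evidence. One CCL3-named probe on the strand opposite to the gene was well above background on the day 7 arrays of cow 1 (-4.09) and cow 3 (-5.56) and on no other array.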
